A study of Mus musculus with 3 samples.

Results

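The genes described here are the serpins, a superfamily of protease inhibitors, together with the plasminogen activators Plat and Plau and the urokinase receptor Plaur. They were chosen by symbol: every row named Serpin with a clade letter from a to i and a number, except Serping1, with pseudogene symbols dropped. This gave 66 rows of 46983 gene rows: 63 serpin rows under 62 symbols, since Serpinb10 stands on 2 rows, and 3 rows for Plat, Plau and Plaur. The 5 rows left out for a pseudogene symbol had no count in any library. Serpina3h and 1 of the Serpinb10 rows are annotated as pseudogenes (polymorphic for Serpinb10) but lack such a symbol. They were kept, had no counts, and stand among the genes without counts below. RNA was measured in cells of the mouse leptomeninges (pia and arachnoid, the inner coverings of the brain) that were dissected out, dissociated and sorted by flow cytometry. The labels give 1 group, the pia enriched fraction of vehicle-treated mice, with 3 libraries numbered 1 to 3. No strain, genotype, age, sex, dose or sorting marker was given in the sources used here, and nothing states whether the libraries came from separate mice. With 1 group there is no contrast between conditions, and p-values below measure only the spread between these libraries, which may be technical.

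A typical serpin inhibits by suicide: a serine protease cuts an exposed loop near the carboxyl end of the inhibitor, and the cut loop then folds into the body of the serpin and traps the protease. The part of the loop called the hinge, which has to insert, is usually made of small residues such as alanine. Some family members have lost inhibition and work as chaperones, hormone carriers or signalling proteins. Clades are named by letter. Clade A holds mostly secreted liver proteins, clade B intracellular inhibitors, and clade E the inhibitors of the plasminogen activators, which turn plasminogen into plasmin and so drive the breakdown of fibrin and matrix.

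The stretches that code for this loop are shown for 5 genes on which the results turn. Serpinf1 and Serpinh1 are the most abundant serpins here and do not inhibit proteases, Serpine2 inhibits the plasminogen activators, and Serpinb9 and Serpinb9b are close copies with very different levels. Each stretch has 75 bases in lower case, which span the hinge and the reactive centre, followed in capitals by the 11 codons of the conserved serpin signature. They are coding strand, 5′ to 3′, from GENCODE M21 transcripts on GRCm38.
Serpinf1: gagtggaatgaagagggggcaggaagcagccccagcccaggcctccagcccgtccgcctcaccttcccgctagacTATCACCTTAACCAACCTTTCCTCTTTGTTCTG
Serpinh1: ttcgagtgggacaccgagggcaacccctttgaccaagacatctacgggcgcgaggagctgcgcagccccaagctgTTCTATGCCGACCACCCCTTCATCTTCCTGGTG
Serpine2: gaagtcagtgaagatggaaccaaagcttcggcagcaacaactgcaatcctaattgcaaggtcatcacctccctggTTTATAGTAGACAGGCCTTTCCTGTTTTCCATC
Serpinb9: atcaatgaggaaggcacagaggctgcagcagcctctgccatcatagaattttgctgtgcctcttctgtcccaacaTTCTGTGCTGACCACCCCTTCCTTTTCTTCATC
Serpinb9b: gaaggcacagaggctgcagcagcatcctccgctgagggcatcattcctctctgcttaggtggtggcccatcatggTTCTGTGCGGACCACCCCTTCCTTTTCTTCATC
Serpinf1 lies on the minus strand at chr11:75410197-75410304 in exon 8 of 8, and Serpinh1 on the minus strand at chr7:99346201-99346308 in exon 5 of 5. The Serpine2 stretch, at chr1:79796842-79799507 on the minus strand, is split by an intron between exons 7 and 8 of 9. Both clade B stretches lie on the plus strand in exon 7 of 7, Serpinb9 at chr13:33015687-33015794 and Serpinb9b at chr13:33039799-33039906. Alanine codons (GCN, read in frame in the 25 codons before the signature) numbered 1 in Serpinf1 and 0 in Serpinh1. They numbered 5 in Serpine2, 6 in Serpinb9 and 5 in Serpinb9b. The signature was found in 51 of 61 serpins with a coding transcript. Over the 49 of these other than Serpinf1 and Serpinh1 the median was 4, with a range of 0 to 7, and 2 had at most 1. Those 2 were Serpinb5, which also does not inhibit, and Serpina1f. A codon count describes the sequence and measures no activity. For all 5 genes none of the 59 windows of 50 bases that cover the stretch was found in a transcript of another gene.

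Levels are given as counts per 1000000 gene counts (CPM) on scaled library sizes and, where genes are compared with each other, as CPM per kilobase of exon. The 3 libraries held 21002860, 28704952 and 25338616 gene counts. A gene at 0 in a library could still be present at up to 3 counts, which is 0.152, 0.101 and 0.116 CPM. These floors cover counting error only, since PCR copies were not marked. All 6 fibroblast markers, Col1a1 and Dcn among them, were at 10 CPM or more, with a summed level of 23467 to 29100 CPM. Of 6 leptomeningeal fibroblast markers, 4 were at 10 CPM or more and all 6 at 1 CPM or more. Slc47a1 made up 843.7, 1239 and 1054 CPM in libraries 1, 2 and 3, and the other 5 summed to 143.9, 200.8 and 153.7. The 6 mural markers summed to 3209, 2764 and 4917 CPM in libraries 1, 2 and 3, and the 5 Schwann markers to 2989, 2613 and 4377. Both sums were highest in library 3. Library 1 stood apart in several other cell types. Its 7 macrophage and microglia markers summed to 11.7 CPM against 246.0 and 709.5 in libraries 2 and 3, and its 4 B lymphocyte markers to 2.07 against 53.7 and 61.8. Its 5 mast cell markers summed to 10.6 CPM against 34.1 and 89.7. Its 5 choroid plexus markers summed to 133.8 CPM against 1653 and 2403. Enpp2, at 41.7 CPM against 1503 and 2237, made up most of the sum in libraries 2 and 3 only. The other 4 summed to 92.0 against 150.2 and 166.5. Of these, Aqp1 was highest in library 1, at 73.3 CPM against 56.9 and 60.6, while Clic6, Kl and Folr1 were lowest there. Its 5 erythroid markers summed to 818.9 CPM against 204.9 and 339.9.

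Serpin transcripts made up 0.906%, 0.676% and 0.716% of gene counts in libraries 1, 2 and 3 (0.766% ± 0.123, SD, n = 3), and 0.696% ± 0.0285 over libraries 2 and 3. A pair of genes that do not inhibit proteases held most of this. Serpinf1 took 63.9%, 54.9% and 44.5% of serpin counts and Serpinh1 30.3%, 32.1% and 41.6%. All other serpins together took 5.84%, 12.9% and 13.9%. Serpin counts here and below are those of the chosen rows and leave out Serping1, which does inhibit proteases. Its mean was 2003 CPM, against 792.8 CPM for all other chosen serpins but Serpinf1 and Serpinh1 summed, so these shares depend on leaving it out. Of the members, 10 had a mean of 10 CPM or more, 11 lay from 1 to under 10 CPM and 8 above 0 and under 1 CPM. The other 37, all serpins, had no count in any library. So 29 of 66 members had a count in some library, beside 25083 of all 46983 gene rows, and this difference was not tested. Serpinb6b, the lowest of the 10 by mean CPM, ranked 7968th of all gene rows. In bulk RNA, fewer cells of a type and less RNA per cell cannot be told apart, which applies to each level below.

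**Figure D1:**
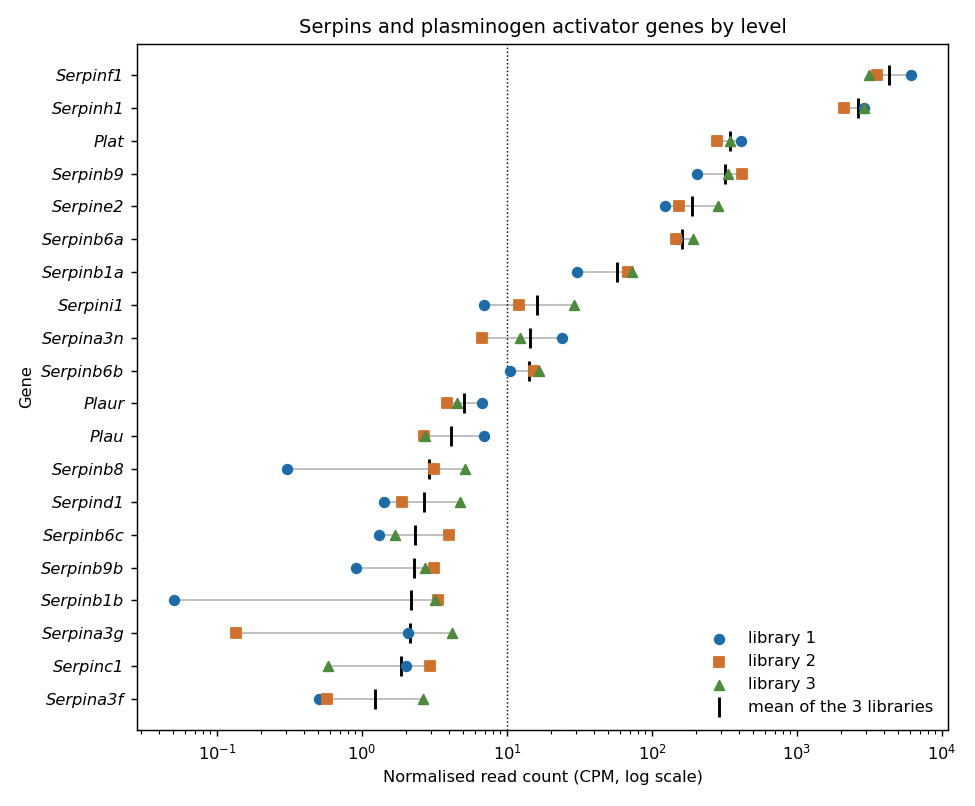
Level of 20 members with a mean of at least 1 CPM, in CPM on a log axis, with 1 point per library, a black tick at the mean and a dotted line at 10 CPM. Serpinf1 and Serpinh1 lie at 2094 CPM or more in each library, Plat and Serpinb9 between 202.9 and 416.0, and 10 of the 20 have a mean under 10.

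Serpinf1 (chr11:75409769-75422701, minus strand) codes for pigment epithelium-derived factor, a secreted protein known for restraining blood vessel growth and for supporting neurons. It was measured at 6138, 3582 and 3111 CPM in libraries 1, 2 and 3 (4277 ± 1629, n = 3) and ranked 15th of all genes by mean CPM. Library 1 was the highest, and libraries 2 and 3 were closer to each other. Serpinf2, the plasmin inhibitor alpha-2-antiplasmin and the other member of clade F, had a mean of 0.422 CPM. Serpinh1 (chr7:99345376-99353239, minus strand) codes for HSP47, the chaperone of the endoplasmic reticulum that binds procollagen as it folds. It was measured at 2911, 2094 and 2912 CPM (2639 ± 472) and ranked 31st. Libraries 1 and 3 were alike and library 2 lower. Per kilobase of exon, Serpinf1 stood at 2602, 1518 and 1319, and Serpinh1 at 1192, 857.1 and 1192, so that the lowest Serpinf1 value was above the highest Serpinh1 value. Within each library the ratio of Serpinf1 to Serpinh1 per kilobase was 2.18, 1.77 and 1.11. Serpinh1's clients Col1a1 and Col1a2, the chains of type I collagen, were at 5099 ± 853 and 11497 ± 935 CPM. Their levels per kilobase, summed, were 1.28, 2.20 and 1.42 times that of Serpinh1. Together with Serpinb5 and the hormone carriers Serpina6 and Serpina7, which had no counts, the serpins that do not inhibit held 94.2%, 87.1% and 86.1% of serpin counts. The inhibitor Serping1 is not in that total.

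**Figure D2:**
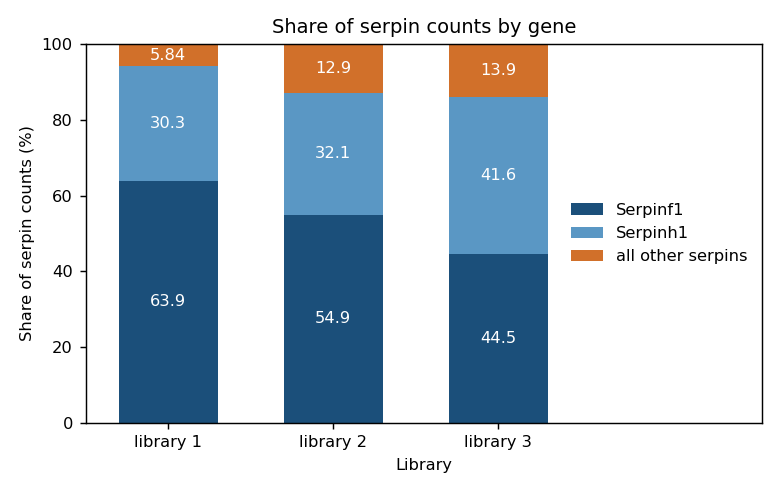
Share of serpin counts, in percent and without Serping1, held by Serpinf1, by Serpinh1 and by all other serpins chosen here in each library. The share of all other serpins runs from 5.84% in library 1 to 13.9% in library 3.

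Serpinb9, an intracellular inhibitor of clade B, had the highest mean level of the members that inhibit proteases. Clade B had 28 rows, of which 17 had no counts and 4 were at 10 CPM or more. Its summed level was 394.7, 658.5 and 627.2 CPM. Serpinb9 (chr13:33003250-33017957, plus strand), the inhibitor of the cytotoxic protease granzyme B, was at 202.9, 416.0 and 334.2 CPM (317.7 ± 107). Library 1 was the lowest of the 3. Serpinb6a (chr13:33917918-34002794, minus strand), an inhibitor of trypsin-like proteases and cathepsin G, was at 148.1, 145.4 and 191.1 CPM (161.6 ± 25.6), with libraries 1 and 2 alike. Serpinb1a (chr13:32842092-32851185, minus strand), an inhibitor of neutrophil elastase, cathepsin G and proteinase 3, was at 30.4, 68.1 and 72.3 CPM (56.9 ± 23.1). Here too library 1 was the lowest. Serpinb6b (chr13:32965209-32979067, plus strand), an inhibitor of granzyme A, was at 10.6, 15.3 and 16.7 CPM (14.2 ± 3.22). Exons of Serpinb6a overlap those of Nqo2 on the opposite strand over 762 bases (14.1% of its exon length). They also overlap opposite-strand exons of 1110046J04Rik over 584 bases (10.8%) and of Ripk1 over 241 bases (4.46%). Nqo2 was at 42.3 ± 16.3 CPM and Ripk1 at 10.3 ± 2.01. Without the strand setting, reads of these overlaps cannot be assigned.

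Close copies of these genes were far lower. Serpinb9b was at 0.909, 3.16 and 2.74 CPM, so that per kilobase Serpinb9 exceeded it 214.0, 126.3 and 117.1 times. Serpinb6a exceeded Serpinb6b 5.87, 3.99 and 4.78 times per kilobase of exon. The size of this difference depends on the length used. Per kilobase of the longest transcript the means were 73.7 and 6.47, further apart than the 29.9 and 6.27 per kilobase of exon. Serpinb1b had 1, 99 and 83 counts beside 601, 2027 and 1875 for Serpinb1a, and Serpinb1c had 0, 1 and 1. Whole coding sequences of Serpinb9, Serpinb6a and Serpinb1a were aligned with gaps to their 12 copies, and identity was counted over aligned bases only. It was 73.3% to 79.7% in the 75 loop bases of the expressed gene and 79.9% to 91.4% in the rest, and lower in the loop for 12 of 12. For Serpinb9 and its 6 copies it was 73.3% to 79.2% in the loop and 82.7% to 86.9% in the rest. The Serpinb9 and Serpinb9b loops printed above are such a pair, of unequal loop length, so that they do not match position by position as printed. In the gapped alignment 57 of 72 aligned loop bases were the same (79.2%), against 86.9% in the rest.

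Granzymes and neutrophil serine proteases, textbook targets of the clade, were at or near 0, while lysosomal cathepsins were abundant. Of 14 proteases of leukocytes and lysosomes, 6 were at 10 CPM or more. The most abundant were cathepsins B, L and H: Ctsb at 2333 ± 415 CPM, Ctsl at 1160 ± 200 and Ctsh at 640.5 ± 82.3. Named after their values were seen, Gzmb had a mean of 0.0896 CPM, Elane of 0.0801 and Prtn3 of 0.485, and Gzma and Ctsg had no counts. The mast cell serine proteases of the list, also named after their values were seen, were higher: Tpsb2 had a mean of 14.1 CPM, Cma1 of 9.26 and Mcpt4 of 6.52, each highest in library 3. Of the 8 proteases that could be tested, 1 varied between libraries: Ctss, the cathepsin of macrophages, at 0.606, 14.6 and 39.5 CPM (edgeR goodness of fit, adjusted p = 5.163e-06), where 0.437% of all genes were called. Without library 1 its adjusted p was 0.2698, without library 3 it was 0.1059, and with tagwise dispersion 0.9996, each by edgeR. It was lowest in library 1 and highest in library 3, as were the summed macrophage markers. None of the 4 T and NK cell markers reached 1 CPM.

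**Figure D3:**
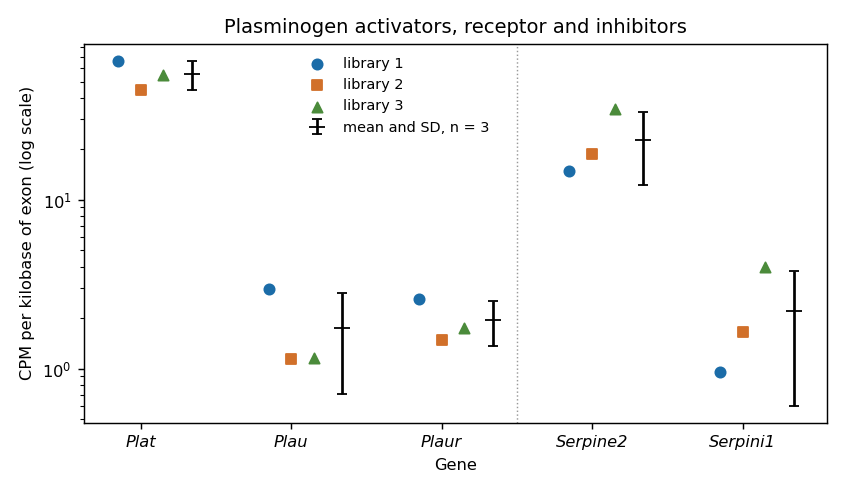
Levels per kilobase of exon on a log axis for the plasminogen activators and the urokinase receptor (left of the dotted line) and for inhibitors of the activators (right), 1 point per library, with the mean and SD beside them (n = 3). Per kilobase of exon Plat lies above Serpine2 in each library, and Plau and Plaur lie between 1 and 3.

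In the plasminogen system the tissue-type activator was far above the urokinase type. Plat (chr8:22757727-22782844, plus strand) was at 411.5, 279.6 and 342.9 CPM (344.7 ± 66.0); among members only Serpinf1 and Serpinh1 had a higher mean CPM. Plau (chr14:20836660-20843385, plus strand), urokinase, was at 6.97, 2.69 and 2.74 CPM (4.13 ± 2.46), with library 1 alone higher. Per kilobase Plat exceeded Plau 22.4, 39.4 and 47.5 times. Plaur (chr7:24462484-24475968, plus strand), the receptor that holds urokinase at the cell surface, was at 6.77, 3.86 and 4.55 CPM (5.06 ± 1.52). Serpine2 (chr1:79794197-79861180, minus strand), protease nexin-1, which inhibits thrombin, urokinase and the tissue-type activator, was at 123.0, 154.6 and 286.0 CPM (187.8 ± 86.5). Library 3 was the highest. Serpinb2, a clade B inhibitor of urokinase, had no counts.

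Plat exceeded Serpine2 4.44, 2.40 and 1.59 times per kilobase of exon in libraries 1, 2 and 3. The size of this difference depends on the length assigned to each gene. Per kilobase of the longest transcript, which shortens Serpine2 more than Plat, the ratios were 2.81, 1.52 and 1.01, so that in library 3 Plat at 84.8 and Serpine2 at 84.3 were level.

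Of 18 other genes of the plasminogen system, 17 stood on a single row, 12 were at 10 CPM or more, and none of the 14 that could be tested varied between libraries. The most abundant were Lrp1, the endocytic receptor that clears complexes of serpins with proteases, at 2195 ± 434 CPM. Next came Anxa2, which binds plasminogen and its tissue-type activator at the cell surface, at 1714 ± 406, and Mrc2, a collagen receptor that associates with the urokinase receptor, at 623.7 ± 22.7. Plasminogen itself (Plg) and Cpb2, a carboxypeptidase that protects fibrin, had no counts, and were named after their values were seen. Among 19 coagulation genes, 5 were at 10 CPM or more. Thbd, thrombomodulin, was at 749.5 ± 92.4 CPM, F3, tissue factor, at 240.3 ± 99.5, and Procr, the protein C receptor, at 21.7 ± 14.6. One of the 6 tested varied, coagulation factor V (F5) at 1.72, 23.1 and 24.6 CPM (edgeR goodness of fit, adjusted p = 0.01204), against the same 0.437% of all genes. By the same edgeR test its adjusted p was 0.9996, 0.05664 and 0.169 without libraries 1, 2 and 3, and 0.9996 with tagwise dispersion.

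The 2 remaining members at 10 CPM or more differed in pattern. Serpini1 (chr3:75557547-75643495, plus strand), neuroserpin, an inhibitor of the tissue-type activator best known from neurons, was at 6.92, 12.0 and 29.1 CPM (16.0 ± 11.6). The highest library was 4.21 times the lowest, and without library 3 the mean was 9.37 CPM, under the limit of 10. The 5 neuron markers summed to 72.2, 87.4 and 83.2 CPM and did not follow that order. Serpina3n (chr12:104406729-104414329, plus strand), a secreted inhibitor induced in inflammation and in reactive astrocytes, was at 24.0, 6.72 and 12.3 CPM (14.3 ± 8.85), and without library 1 its mean was 9.78. The 5 astrocyte markers summed to 1187, 1502 and 738.6 CPM, of which Gja1 made up 1143, 1464 and 678.3. The other 4 summed to 43.9, 37.7 and 60.3 CPM, with library 2 the lowest, as for Serpina3n, and library 3 the highest. The part of these cell types in either level was not tested.

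Clade A, the large secreted clade, was nearly silent apart from Serpina3n. Of its 25 genes, 19 had no counts, and its summed level was 27.5, 7.43 and 19.1 CPM. Serpina3g, an interferon-induced relative, had 41, 4 and 109 counts, and Serpina3f 10, 17 and 68. Serpina9 and Serpina3m had 10 and 6 counts, all in library 1. Of the 6 hepatocyte markers, none reached 1 CPM, and Alb, Apob and Ahsg had no counts. Among the circulating inhibitors of coagulation, Serpind1, heparin cofactor II, was at 1.41, 1.88 and 4.74 CPM. Serpinc1, antithrombin, was listed at 2.02, 2.96 and 0.578 CPM, but 58.8% of the 50-base windows of its longest transcript are also found in Zbtb37. The exons of the pair overlap on opposite strands over 34.4% of the exon length of Serpinc1. Without the strand setting it cannot be told how many of these counts come from Zbtb37, which was at 9.96 ± 4.48 CPM.

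Ordered by mean level per kilobase, 20 members at 1 CPM or more were each compared with the next. Only 5 of the 19 neighbouring pairs had no overlap between libraries: Serpinf1 over Serpinh1, Serpinh1 over Serpinb9, Plat over Serpinb6a, Serpine2 over Serpina3n, and Serpinb6b over Serpini1. Serpinb9 at 90.9 ± 30.8 and Plat at 55.2 ± 10.6 CPM per kilobase overlapped. Serpinb6a at 29.9 ± 4.74 overlapped Serpinb1a at 24.7 ± 10.0, which overlapped Serpine2 at 22.7 ± 10.4. From Serpini1 at 2.20 to Serpinc1 at 0.217 no neighbours were separate. With the length of the longest transcript, Serpine2 moved above Serpinb1a, and some of these separations were lost. The lowest Plat value, 69.2 in library 2, was then under the Serpinb6a mean of 73.7, so that this pair was no longer separate. Libraries of Serpinb6b and Serpini1 then overlapped too.

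**Figure D4:**
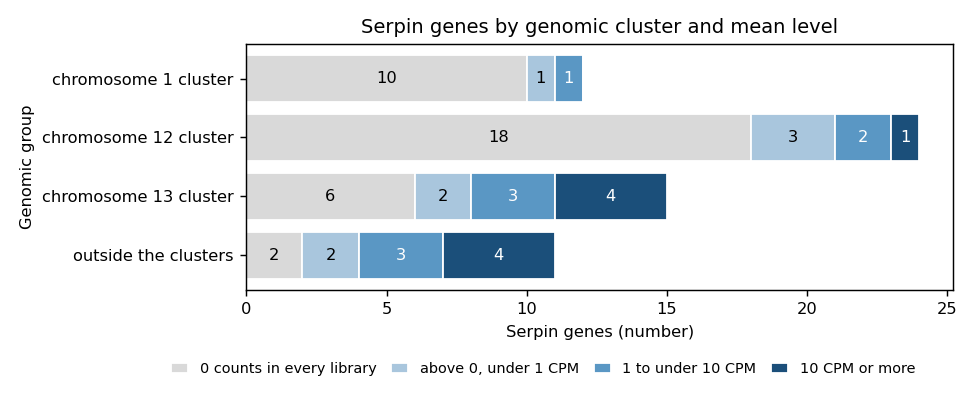
Number of serpins in each of the 3 genomic clusters and outside them, split by mean level. The chromosome 13 cluster has 4 of 15 genes at 10 CPM or more, the chromosome 12 cluster 1 of 24 and the chromosome 1 cluster 0 of 12.

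Most serpin genes lie in 3 clusters, and these differed in how many genes had counts. On chromosome 1, 12 clade B genes lie between 106861173 and 107610484 (749.3 kb), and 10 of them had no counts. In that cluster Serpinb8, an inhibitor of furin, had 6, 94 and 134 counts and Serpinb7 had 1 count in library 1. On chromosome 12, 24 clade A genes lie between 103614786 and 104414329 (799.5 kb), of which 18 had no counts. The single member there at 10 CPM or more was Serpina3n. On chromosome 13, 15 clade B genes lie between 32842092 and 34002794 (1161 kb), of which 6 had no counts and 4 were at 10 CPM or more. Those 4 were Serpinb1a, Serpinb6b, Serpinb9 and Serpinb6a. The 11 serpins with coordinates outside these clusters held 92.1% of serpin counts on average, and 4 of them were at 10 CPM or more. One of the 2 Serpinb10 rows was not found in the annotation and has no place here.

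Close copies bear on how the zeros can be read. Of 65 members with a transcript in the annotation, 24 shared over 10% of their 50-base windows with transcripts of other genes. Of these, 17 had no counts and 7 had some. In Serpina1c 79.3% of windows were shared, in Serpina1a 67.4% and in Serpinb9f 78.7%. Windows shared with a copy elsewhere give reads that align to more than 1 place, and windows shared because exons of another gene overlap give reads that fit both genes. Over all genes, 16.9%, 15.3% and 17.4% of reads in libraries 1, 2 and 3 were set aside as aligned to more than 1 place. None of the 10 members at 10 CPM or more was among the 24. Serpinf1, Serpinh1, Plat, Plau and Plaur shared no window with another gene.

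No member varied between libraries beyond the spread that edgeR estimated for genes of its level. Of 66 members, 18 passed the filter on low counts and 48 did not. None of the 18 was called at an adjusted p under 0.05 by edgeR's goodness of fit test, where 63 of 14409 genes (0.437%) were called. With trends on GC content and length removed, 0 of 18 members were called, against 0.729% of all genes. At an unadjusted p under 0.05 there were 2 of 18 members as counted, against 7.04% of all genes. These were Serpini1 (unadjusted p = 0.02504, adjusted p = 0.5259) and Serpina3f (unadjusted p = 0.02022, adjusted p = 0.4872). A share so near the background is no result about the members, and with 3 libraries a p that misses the threshold does not show equal levels. On the log2(CPM + 1) scale the median range between libraries was 1.11 over tested members and 0.665 over all genes tested. This difference was not tested. Serpinb8, Serpinb1b and Serpina3g did not pass the filter, because 1 library was near 0, and were not tested.

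**Figure D5:**
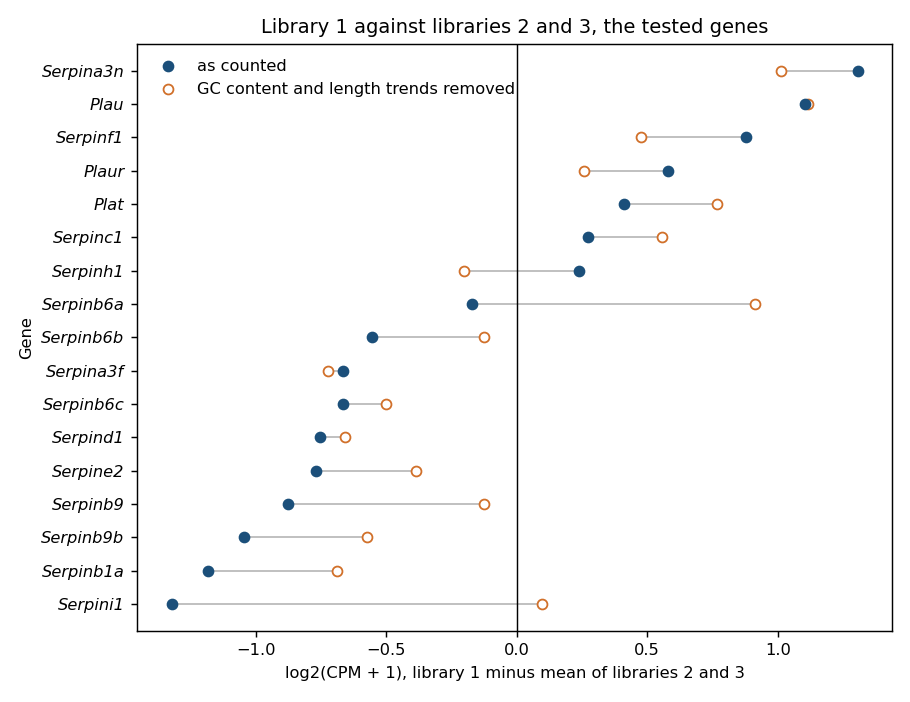
Log2 difference, on the log2(CPM + 1) scale, between library 1 and the mean of libraries 2 and 3 for 17 tested members, as counted and with trends on GC content and exon length removed. Serpina3n and Plau lie above 0 on both, and Serpinb1a, Serpinb9 and Serpine2 below 0 on both.

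The direction of library 1 was described on the log2(CPM + 1) scale, which understates the change of low genes. Library 1 was the lowest in 9 of 18 members, against 40.4% of all genes, and the highest in 5 of 18, against 39.6%. The median log2 difference between library 1 and the others was -0.37 over members and 0.00 over all genes tested. For the 6 clade B members it was -0.77, with library 1 lowest in 5. These members have a median GC content of 43.8%, against 49.8% over all genes tested. With trends on GC content and length removed, the clade B median was -0.31 and that of all tested members -0.13, against 0.00 over all genes. Single members moved by different amounts. Serpinb1a went from -1.18 to -0.69, Serpinb9 from -0.87 to -0.12 and Serpine2 from -0.77 to -0.39. Serpinf1 went from 0.88 to 0.48 and Serpina3n from 1.31 to 1.01, while Plau stayed at 1.10 and 1.12. The sign turned in 3 members: Serpini1 from -1.32 to 0.10, Serpinb6a from -0.17 to 0.91 and Serpinh1 from 0.24 to -0.20. The low macrophage, B lymphocyte, mast cell and choroid plexus sums of library 1 lie beside these differences, and their part in them was not tested.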

How the data were processed

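The values were read counts per gene as deposited by the authors: whole numbers in 1 table with 3 columns. The labels name a table of normalised counts, but the totals of this table differ between libraries and its values were taken as raw counts. Per the labels' protocols, 2 ng of RNA per sample was amplified as cDNA over 12 cycles and made into libraries with 8 cycles of PCR, read as paired 50 bp ends. The submitters' processing notes name HTSeq 0.5.3, DESeq2 1.22.1 and the build mm10, with no role or order. The aligner, annotation release and strand setting are not given in the sources used here. The 5 rows of reads given to no gene held 45.6%, 39.1% and 39.6% of reads in libraries 1, 2 and 3 and were left out. Identifiers without their version matched GENCODE M21 (GRCm38, the assembly of mm10) for 46488 gene rows (98.9%) and 65 of 66 members.

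TMM factors for library size came from edgeR 4.0.16 (R 4.3.3) over 14409 genes past filterByExpr at a minimum count of 10, and the floor of detection was set at 3 counts. With 1 group no quasi-likelihood contrast exists, so variation between libraries was tested by edgeR's goodness of fit at the trended dispersion, with Benjamini-Hochberg adjustment over all genes and a threshold of 0.05. The trend on GC content and length was removed with smoothed offsets. DESeq2 1.42.0 gave alternative size factors. Scripts were tested on simulated data. Recovery of changed genes was required there only at a dispersion lower than that estimated here, so it gives no measure of power in these data. Levels per kilobase divide CPM by the union of exons. Alternatives changed the scaling, filter, dispersion, length and gene set, or left out each library. Members named with values are those at a mean of 10 CPM or more, those called variable, and Plat, Plau and Plaur; from each list of other genes, the 3 highest and any called variable. Lower members are named by their values or counts, and 1 of them is not reported here. The members and lists were chosen with earlier results of these data known.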

Additional observations from a re-analysis of the deposited data

How the results depend on the processing

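The serpin share of gene counts (0.766%) was 0.963% with Serping1 included, 0.937% per kilobase of exon and, in an alternative chosen after seeing the data, 0.0800% without Serpinf1 and Serpinh1. The share held by the 3 most abundant serpins (93.5%) was 96.5% per kilobase. Leaving out each library in turn, these shares ran from 0.696% to 0.811% and from 92.2% to 94.9%. The number of members at 10 CPM or more ran from 9 to 10. Members past the filter numbered 18 as reported and 22 with a mean of at least 10 counts. Members called variable by edgeR's goodness of fit numbered 0 under each of 10 alternatives, with 0 to 6 at an unadjusted p under 0.05. The 63 genes called among all genes fell to 0 with tagwise dispersion (95 at an unadjusted p under 0.05), a setting also chosen after seeing the data, and ranged up to 187. Other library scaling moved the CPM of the 12 named members by less than 1 SD in 24 of 24 cases. Leaving out 1 library moved Serpini1 by over 1.5 times, from 16.0 to 9.37 CPM without library 3; Plau went from 4.13 to 2.79 and Serpina3n from 14.3 to 9.78 without library 1. No paired analysis was possible because the libraries form 1 group. Members under about 0.1 CPM cannot be told from absent ones at this depth.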

Other observations

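Serping1, the C1 inhibitor of complement and a serpin that the choice of members leaves out, was at 3074, 1614 and 1322 CPM (2003 ± 939, n = 3) and ranked 43rd of all genes. Library 1 was the highest, as for Serpinf1, and the gene was not called variable (edgeR goodness of fit, adjusted p = 0.9521). Its mean level per kilobase, 861.7, lies under the Serpinh1 mean of 1080 and above the mean of every serpin inhibitor among the members. In library 1 its CPM, 3074, was above the 2911 of Serpinh1, so its order with Serpinh1 did not hold in each library. C1ra, a protease of the complement C1 complex that Serping1 inhibits, was at 294.9, 144.5 and 119.9 CPM (186.4 ± 94.8) and also highest in library 1. C1s1, the other protease of that complex, named after its values were seen, was at 103.0, 99.1 and 107.6 CPM and not highest there. Of 14 membrane and secreted serine proteases, 8 were at 10 CPM or more and none of the 12 tested varied between libraries. The highest was Htra3, which acts on matrix and on signalling of the TGF-beta family, at 253.1 ± 51.9 CPM, and Htra1 was at 140.2 ± 34.7.

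Inhibitors of other families were also measured. Of 15 such genes found, 8 were at 10 CPM or more and none of the 13 tested varied. Wfdc1 was at 223.2 ± 48.3 CPM, Pebp1 at 165.6 ± 15.6 and Tfpi, which blocks tissue factor, at 87.9 ± 28.7. All 11 of 11 genes of a list of TGF-beta and hypoxia ligands, receptors and response genes were at 10 CPM or more. Bhlhe40 was at 742.0 ± 234 CPM, Tgfbi at 691.0 ± 138 and Tgfb3 at 446.9 ± 93.3, and none of the 11 varied between libraries. Agt, the angiotensin precursor and a serpin by fold whose symbol does not show it, was at 6.38 ± 1.31 CPM.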
